A study of Homo sapiens with 4 samples.

Results

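The genes described here encode the Wnt ligands, the proteins that secrete, receive and restrain them, and the core of the intracellular pathway. They were the rows of the expression table whose Entrez identifier carries a RefSeq symbol of the WNT, FZD, DKK, SFRP or DVL families, or is one of LRP5, LRP6, AXIN1, AXIN2, APC, CTNNB1, GSK3B, TCF7, TCF7L1, TCF7L2, LEF1, RNF43, ZNRF3, LGR4, LGR5, ROR1, ROR2, PORCN and WLS. Of 16658 genes in the table, 51 were members. RefSeq holds 59 symbols that fit this rule, and the other 8 (WNT1, WNT3A, WNT8A, WNT8B, DKK2, SFRP1, SFRP2 and LEF1) were not analysed here.

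RNA-seq was performed on WT cells and on ZCCHC4 KO1 cells, with 2 libraries per group. Both groups were labelled HepG2, a cell line from a human liver tumor, were untreated and were grown to 80% confluence in DMEM with 10% serum. ZCCHC4 KO1 is 1 knockout line made with CRISPR/Cas9, so the loss of ZCCHC4 and the history of that line cannot be told apart. Expression is given as FPKM, that is, fragments scaled by the length of the transcript and by the number of mapped fragments, a unit in which levels of different genes can be compared.

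Wnt ligands are lipidated by PORCN, carried to the cell surface by WLS and received by frizzled receptors together with the co-receptors LRP5 and LRP6. Without a ligand, a complex of AXIN, APC and GSK3B marks beta-catenin (CTNNB1) for degradation. With a ligand, dishevelled proteins inhibit this complex, and beta-catenin enters the nucleus to act with TCF/LEF factors. DKK and SFRP proteins block the pathway outside the cell, and the ligases RNF43 and ZNRF3 remove frizzled receptors from the surface unless R-spondins engage LGR receptors. In the liver, Wnt signalling is known for setting the gene program of hepatocytes around the central vein.

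ZCCHC4 itself was at an FPKM of 7.22 and 5.44 in WT, against 1.08 and 2.29 in ZCCHC4 KO1, with both knockout libraries below both WT libraries. The limma adjusted p of ZCCHC4 was 0.0448, and it was 0.0514 without ZCCHC4 KO1 replicate 1. The call was also lost with no filter on low values (0.115) and with 0.1 as the pseudocount (0.0551). The labelled cell type was not borne out by its defining genes. Of 22 hepatocyte and HepG2 markers, 13 were listed, their summed FPKM was between 1.46 and 2.79 per library, 9 were at 0 in at least 1 library, and VTN alone was at an FPKM of 1 or more in each WT library. AFP, a fetal liver protein, was at 0 and 0.05 in WT, and both ZCCHC4 KO1 libraries listed it at 0. Of 10 fibroblast and mesenchymal markers, 9 were listed, and their sum, mostly VIM, was between 563.74 and 579.46 in WT and between 399.81 and 427.26 in ZCCHC4 KO1, with COL1A1 and COL3A1 passing the test as lower and 4 of the 9 at 0 in at least 1 library. Of 8 endothelial and macrophage markers, 7 were listed, with sums of 16.67 and 18.79 in WT, against 12.34 and 12.2 in ZCCHC4 KO1. These sums were mostly CD68, at 14.72 and 16.74 in WT, against 11.90 and 11.71 in ZCCHC4 KO1, which was not called (adjusted p = 0.244 from limma). CSF1R passed the test as lower, having passed the filter on low values only through its WT libraries. PECAM1, CDH5, VWF, KDR and PTPRC were at 0.55 or less in all libraries, with KDR and VWF at 0 in at least 1 library. The part of these differences in the results below was not tested, and fewer cells of a type cannot be told apart from less RNA per cell. The read totals behind the FPKM values are unknown, so counting errors are not stated. Nothing in the labels says that the 2 libraries of a group came from separate cultures, so p-values measure only the spread between these libraries.

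A gene was tested if its FPKM was 1 or more in at least 2 libraries, as it was for 31 of the 51 members and for 10726 of all genes. The test was limma on log2(FPKM + 1), and a gene was called at a Benjamini-Hochberg adjusted p below 0.05 over all genes tested. Of the 31 tested members, 1 was higher in ZCCHC4 KO1, the ligand WNT7B, and 3 were lower, namely the secreted antagonist DKK1, the ligase RNF43 and the ligand acyltransferase PORCN. Among all genes tested, 1.5 percent were called higher and 4.48 percent lower, against 3.23 and 9.68 percent of the tested members. The median log2 difference was -0.15 over the tested members and -0.03 over all tested genes. At the thresholds of the study (FDR under 0.001 with at least a 2-fold change), 0 members passed in limma. Of all genes, 0.0186 percent passed higher and 0.0559 percent lower. The study reports far more genes at these thresholds and does not name its test, so which members passed there is not known here. An unadjusted p under 0.05 was found in limma for 9 of the 31 tested members and for 2455 of the 10726 genes. Both ZCCHC4 KO1 libraries lay above both WT libraries for 7 tested members (22.6 percent, against 23.1 percent of all tested genes) and below them for 13 (41.9 percent, against 28.5 percent). In the other 11 the groups overlapped. RNF43 passed the filter on low values only through its WT libraries and WNT9A only through its ZCCHC4 KO1 libraries, so a difference in these genes was built into the filter.

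**Figure D1:**
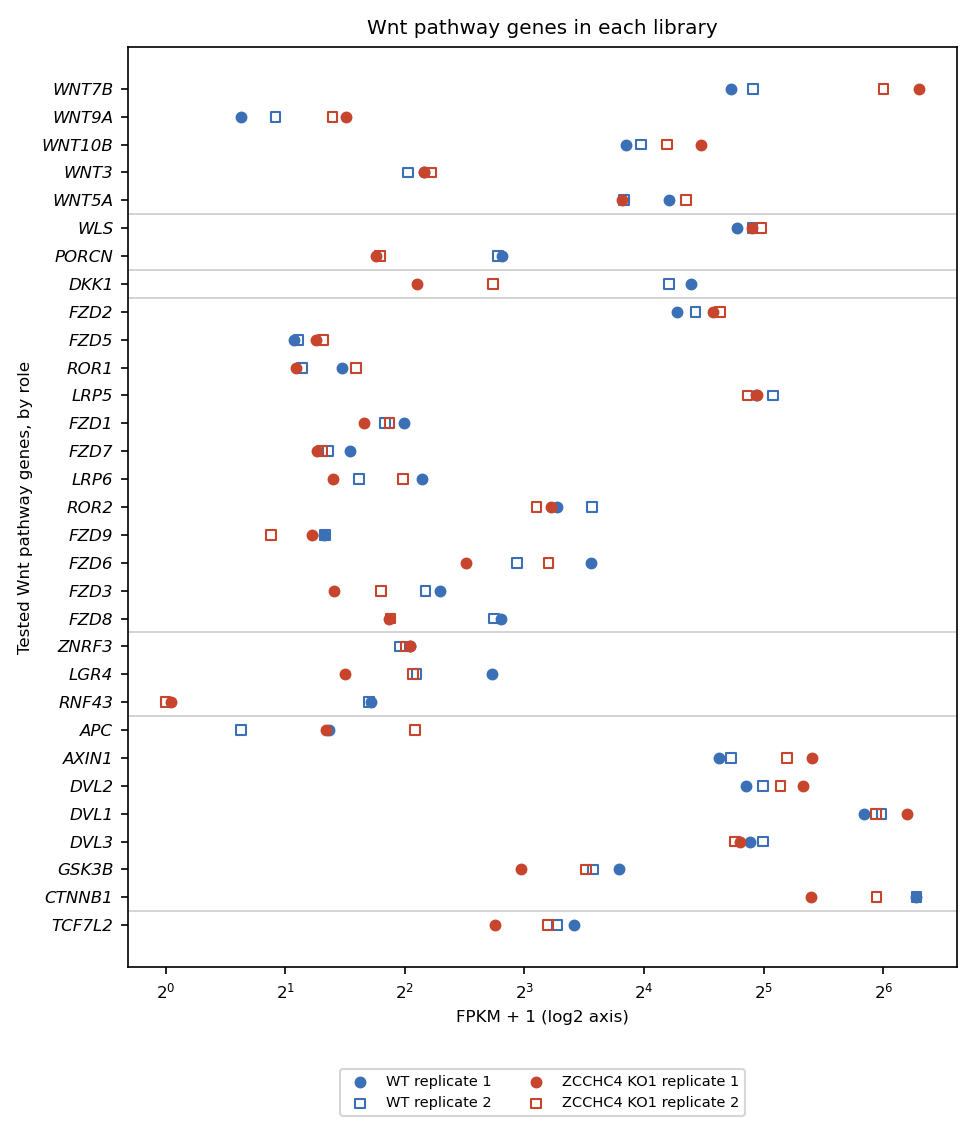
FPKM + 1 on a log2 axis (x) of the 31 tested members (y), grouped by role from ligands at the top to TCF/LEF factors at the bottom, with 1 point per library (blue WT, red ZCCHC4 KO1; filled circle replicate 1, open square replicate 2). The red points of WNT7B lie right of the blue ones, and those of PORCN, DKK1 and RNF43 lie left of them, while the groups overlap for WNT5A, LRP6 and ROR1.

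Promoter sequences of 2 called members are shown, since their RNA differed between the groups. The 250 bases before the annotated start site were taken from RefSeq (GRCh38.p14), in which 37 of the 51 members had 1 or more windows, 47 in all. WNT7B had none. The core letters of TCF/LEF sites were searched on both strands, either as CTTTGAA or as CTTTGAT, and likewise as CTTTGTA or as CTTTGTT. DKK1 had 2 matches, which do not overlap and begin 95 and 76 bases before the start site, and 12.0 percent of all 35114 windows of this length had at least 1 match. Among the 47 member windows, 3 had at least 1 match, namely 1 window each of DKK1, TCF7 and TCF7L2. The 2 windows of RNF43 and the 2 of PORCN did not hold these letters. The DKK1 window lies on the plus strand at chr10:52314031-52314280 and the RNF43 window that ends at the outermost start site lies on the minus strand at chr17:58417535-58417784. Both are written 5′ to 3′ in the direction of the gene, with the matches in capitals.
DKK1: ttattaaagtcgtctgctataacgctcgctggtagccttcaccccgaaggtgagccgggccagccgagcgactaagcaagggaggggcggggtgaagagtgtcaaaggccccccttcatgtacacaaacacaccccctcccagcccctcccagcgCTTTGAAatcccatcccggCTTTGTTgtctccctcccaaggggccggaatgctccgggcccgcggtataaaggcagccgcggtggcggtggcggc
RNF43: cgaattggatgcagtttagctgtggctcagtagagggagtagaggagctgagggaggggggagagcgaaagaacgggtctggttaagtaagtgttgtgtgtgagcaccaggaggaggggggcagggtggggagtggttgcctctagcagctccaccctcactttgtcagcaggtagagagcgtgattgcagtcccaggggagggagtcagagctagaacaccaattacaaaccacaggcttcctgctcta
A match is a description of the letters and does not show that a factor binds there.

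WNT7B, a ligand of the canonical pathway on chromosome 22 (GRCh38, 45920366 to 45977162), was the most abundant Wnt ligand in every library. Its FPKM was 25.52 and 29.02 in WT, against 77.82 and 63.08 in ZCCHC4 KO1. Both knockout libraries were above both WT libraries. The mean rose 2.58-fold, from 27.27 ± 2.475 to 70.45 ± 10.42 (SD, n = 2 each), with a log2 difference of 1.33 (standard error 0.163, adjusted p = 0.0141 from limma). The call held in all 13 alternative settings, among them the removal of each library in turn, in which the log2 difference was from 1.18 to 1.48.

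The 4 other tested ligands had positive differences that did not pass the test. WNT10B, a canonical ligand, was at 13.37 and 14.72 in WT, against 21.25 and 17.30 in ZCCHC4 KO1, so that the groups did not overlap. Its log2 difference was 0.42 (standard error 0.176, adjusted p = 0.227 from limma). WNT9A was at 0.55 and 0.89 in WT, against 1.85 and 1.63 in ZCCHC4 KO1, again without overlap (log2 difference 0.68, adjusted p = 0.103 from limma), and it passed with median-ratio scaling (adjusted p = 0.0497). It passed the filter on low values only through its ZCCHC4 KO1 libraries, so that a difference was built into the filter. With no filter, the adjusted p of WNT9A was 0.132 from limma. WNT5A, the main ligand of the noncanonical branch, was at 17.52 and 13.22 in WT, against 13.08 and 19.44 in ZCCHC4 KO1, with overlapping groups. WNT3, another canonical ligand, was at 3.48 and 3.08 in WT, against 3.47 and 3.66 in ZCCHC4 KO1.

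The 10 untested ligands stayed at an FPKM of at most 0.38 in any library. WNT11, WNT16 and WNT2B were lower in both ZCCHC4 KO1 libraries than in both WT libraries, with WNT11 at 0.38 and 0.33 in WT, against 0.16 and 0.02 in ZCCHC4 KO1. WNT5B was higher in both, at 0.1 and 0.17 in WT, against 0.35 and 0.21 in ZCCHC4 KO1. With no filter on low values, limma called 0 of these 10, while WNT11, WNT16 and WNT2B had an unadjusted p under 0.05 (adjusted p = 0.133, 0.179 and 0.124).

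The make-up of the ligand pool differed between the groups. The FPKM of the 15 listed ligands summed to 61.84 and 62.15 in WT, against 118.24 and 105.97 in ZCCHC4 KO1. WNT7B held 41.27 and 46.69 percent of the sum in WT, against 65.82 and 59.53 percent in ZCCHC4 KO1. The share of WNT5A was 28.33 and 21.27 percent in WT, against 11.06 and 18.34 percent in ZCCHC4 KO1, although its own level overlapped between the groups. The next ligand after WNT7B was WNT5A in WT replicate 1 and in ZCCHC4 KO1 replicate 2 and WNT10B in the other libraries, so the order of these neighbours did not hold between replicates. WNT3 and WNT9A followed in all 4 libraries.

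The genes for ligand secretion differed from each other. PORCN, the acyltransferase that attaches palmitoleate to Wnt ligands, was at an FPKM of 6.01 and 5.87 in WT, against 2.38 and 2.47 in ZCCHC4 KO1. All 4 values were tight within their group and the groups lay far apart. The mean fell from 5.94 ± 0.099 to 2.425 ± 0.0636 (SD, n = 2 each), a log2 difference of -1.02 (standard error 0.186, adjusted p = 0.0381 from limma). The call was lost without WT replicate 1, without WT replicate 2 or without ZCCHC4 KO1 replicate 1 (adjusted p = 0.266, 0.177 and 0.0664 from limma) and with no filter on low values (0.0916). WLS, the carrier of lipidated ligands, was at 26.41 and 28.98 in WT, against 28.82 and 30.53 in ZCCHC4 KO1 (log2 difference 0.10, standard error 0.142, adjusted p = 0.747 from limma).

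PORCN lies on the short arm of chromosome X (GRCh38, 48508992 to 48520814). Its 20 nearest tested genes, between 47190847 and 48919024, were all at negative differences, with a median of -0.79. The fall of PORCN thus stood beside a shift of its neighbours, and their relation was not tested.

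DKK1, which binds LRP5 and LRP6 and keeps them from the ligand, was the only listed DKK or SFRP gene that reached an FPKM of 1. It lies on chromosome 10 (GRCh38, 52314281 to 52317657). Its FPKM was 20 and 17.49 in WT, against 3.30 and 5.68 in ZCCHC4 KO1, without overlap. The mean was 4.17-fold lower in ZCCHC4 KO1, at 18.74 ± 1.775 against 4.49 ± 1.683 (SD, n = 2 each), and the log2 difference was -1.88 (standard error 0.259, adjusted p = 0.0187 from limma). The call was lost where no filter on low values was used (adjusted p = 0.0614 from limma). The 20 nearest tested genes had a median of -0.06, with 7 higher and 13 lower. DKK1 made up 97.7 and 98.87 percent of the summed FPKM of the listed DKK and SFRP genes in WT, against 83.76 and 94.82 percent in ZCCHC4 KO1. This sum was 20.47 and 17.69 in WT, against 3.94 and 5.99 in ZCCHC4 KO1. DKK3, DKK4, SFRP4 and SFRP5 stayed at 0.35 or less in all libraries, with overlapping groups. DKK4 lies in a stretch of chromosome 8 in which the 20 nearest tested genes were all at negative differences (median -0.53).

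RNF43, a surface ligase that sends frizzled receptors to degradation and is itself a beta-catenin target, was near 0 in the knockout line. Its FPKM was 2.29 and 2.25 in WT, and it was listed at 0.03 and 0 in ZCCHC4 KO1. The WT libraries were nearly equal and both knockout libraries were far below them. The log2 difference was -1.69 (standard error 0.161, adjusted p = 0.00774 from limma), which understates the fall of a gene with low values, and with a pseudocount of 0.1 it was -4.38. RNF43 was called in all 12 alternative settings in which it was tested. It passed the filter on low values only through its WT libraries, so that a difference was built into the filter. With no filter, the adjusted p of RNF43 was 0.0242 from limma. It lies on chromosome 17 (GRCh38, 58352500 to 58417534), where its 20 nearest tested genes had a median of -0.17, with 5 higher and 15 lower.

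The related ligase ZNRF3 was at 3.12 and 2.89 in WT, against 3.12 and 3.02 in ZCCHC4 KO1, a log2 difference of 0.02 (standard error 0.185, adjusted p = 0.961 from limma). ZNRF3 was above RNF43 in every library. LGR4, a receptor for R-spondins, was at 5.63 and 3.28 in WT, against 1.83 and 3.20 in ZCCHC4 KO1, lower in both knockout libraries but with replicates of each group far apart (log2 difference -0.63, standard error 0.31, adjusted p = 0.302 from limma). LGR5, the stem cell receptor of the same family, stayed between 0.06 and 0.11.

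**Figure D2:**
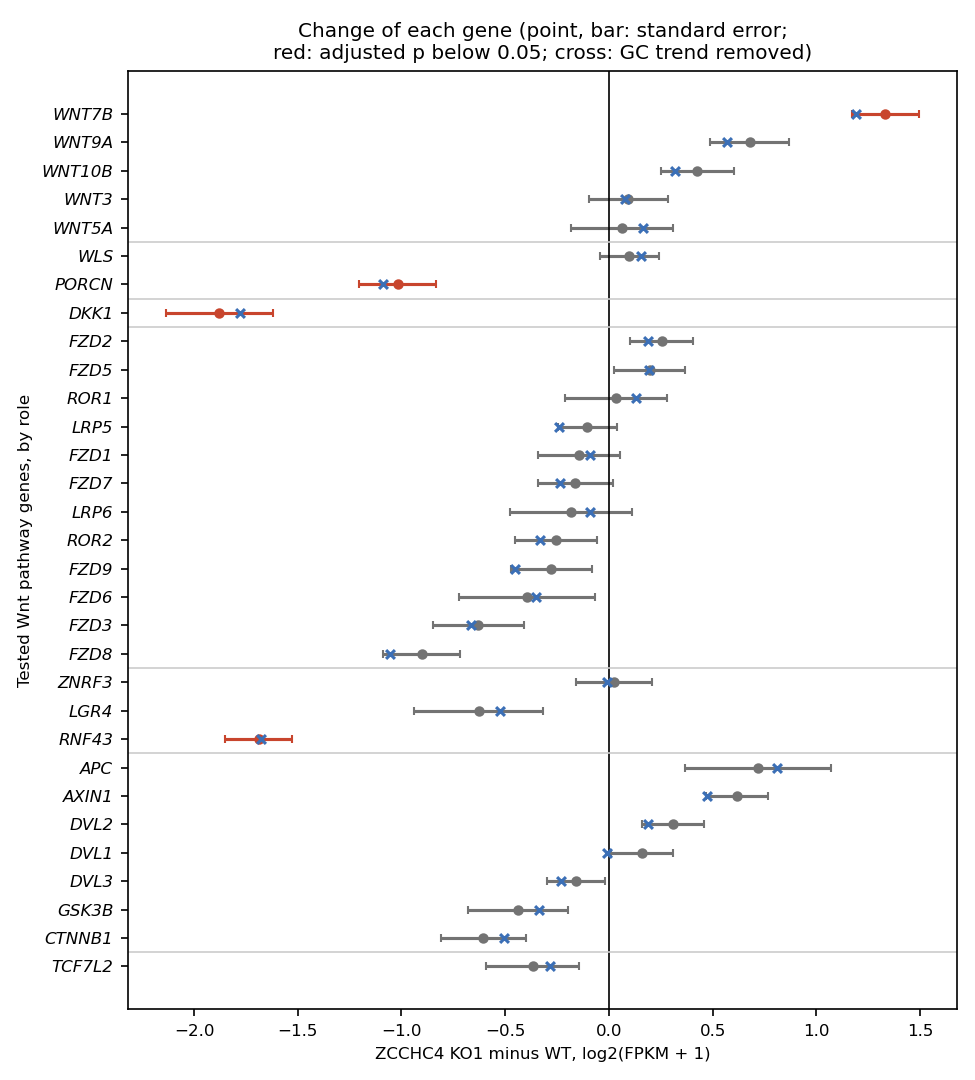
Difference between ZCCHC4 KO1 and WT (x, in log2(FPKM + 1)) of the 31 tested members (y, grouped by role), with bars for the standard error, red for an adjusted p below 0.05 and a blue cross for the difference after removal of the trend on GC content. WNT7B stands at 1.33 and DKK1, RNF43 and PORCN at -1.88, -1.69 and -1.02, while the other 27 lie between -0.90 and 0.72.

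Of 12 tested receptors and co-receptors, limma called 0, and 2 (FZD3 and FZD8) had an unadjusted p under 0.05. Their median log2 difference was -0.17, with 3 positive and 9 negative. FZD8 came closest to the threshold. It was at an FPKM of 5.98 and 5.70 in WT, against 2.64 and 2.68 in ZCCHC4 KO1, a mean 2.20-fold lower without overlap. Its log2 difference was -0.90 (standard error 0.186, adjusted p = 0.0515 from limma), and it passed with median-ratio scaling (0.0238), with quantile normalization (0.0496), with the GC trend removed (0.0163), with eBayes without a trend (0.0367) and without ZCCHC4 KO1 replicate 2 (0.0449). The 20 nearest tested genes of FZD8 had a median of -0.06.

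FZD3, a frizzled of the planar cell polarity branch, was at 3.91 and 3.51 in WT, against 1.65 and 2.49 in ZCCHC4 KO1 (log2 difference -0.63, adjusted p = 0.163 from limma), and it passed with the GC trend removed (adjusted p = 0.0396). It lies on the short arm of chromosome 8, and 17 of its 20 nearest tested genes, between 27284886 and 30658236, were lower, with a median of -0.57. Its difference was therefore of the size of that of its neighbours.

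FZD2 was the most abundant frizzled in every library, at 18.34 and 20.55 in WT, against 22.82 and 23.89 in ZCCHC4 KO1 (log2 difference 0.25, adjusted p = 0.387 from limma). FZD6 followed in all 4 libraries, with replicates far apart, at 10.79 and 6.67 in WT, against 4.69 and 8.20 in ZCCHC4 KO1. FZD3 ranked above FZD1 in both WT libraries and below it in both ZCCHC4 KO1 libraries. The FPKM of the 10 listed frizzled genes summed to 47.14 and 43.72 in WT, against 38.56 and 44.55 in ZCCHC4 KO1, with overlapping groups. FZD10 and FZD4 were untested, at no more than 0.83 in any library.

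LRP5 exceeded LRP6 in every library. LRP5 was at 29.67 and 32.72 in WT, against 29.73 and 28.12 in ZCCHC4 KO1 (log2 difference -0.10, standard error 0.141, adjusted p = 0.726 from limma), and LRP6 was at 3.41 and 2.06 in WT, against 1.64 and 2.96 in ZCCHC4 KO1. Both had overlapping groups. The noncanonical receptors ROR1 and ROR2 did not pass the test either. ROR2 was at 8.67 and 10.83 in WT, against 8.34 and 7.58 in ZCCHC4 KO1, lower without overlap, and ROR1 was between 1.13 and 2.01 in all libraries.

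Of 7 tested cytoplasmic components, limma called 0, and 2 (AXIN1 and CTNNB1) had an unadjusted p under 0.05. CTNNB1, which encodes beta-catenin, was at an FPKM of 76.13 and 76.57 in WT, against 41.00 and 60.54 in ZCCHC4 KO1. Both knockout libraries were below WT, but they differed from each other more than the WT libraries did. The log2 difference was -0.60 (standard error 0.203, adjusted p = 0.152 from limma). It passed with the GC trend removed (-0.51, adjusted p = 0.0403) and without ZCCHC4 KO1 replicate 2 (-0.88, adjusted p = 0.00606).

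AXIN1, the scaffold of the complex that degrades beta-catenin, was at 23.75 and 25.50 in WT, against 41.23 and 35.64 in ZCCHC4 KO1. Both knockout libraries were higher, by 1.56-fold in the mean, with a log2 difference of 0.62 (standard error 0.149, adjusted p = 0.0743 from limma). It passed with quantile normalization (0.034), with the GC trend removed (0.0385) and without ZCCHC4 KO1 replicate 2 (0.0235). Its 19 nearest tested genes at the end of chromosome 16 had a median of 0.34, with 13 higher and 6 lower. AXIN2, the paralog that beta-catenin induces as a feedback inhibitor, was below the filter on low values, at 0.24 and 0.26 in WT, against 0.04 and 0.01 in ZCCHC4 KO1, lower in both knockout libraries. With no filter it was called lower (log2 difference -0.29, standard error 0.0329, adjusted p = 0.0442 from limma), the only call among the 20 members that the filter had left out. In that fit 0.492 percent of all 16658 genes were called higher and 1.57 percent lower. All 4 AXIN2 values were near the floor, where the depth behind them is unknown.

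APC, a tumor suppressor of the same complex, was at 1.57 and 0.55 in WT, against 1.54 and 3.25 in ZCCHC4 KO1, with overlapping groups and a standard error of 0.351 on the log2 scale. GSK3B, the kinase that marks beta-catenin, was at 12.83 and 10.89 in WT, against 6.86 and 10.43 in ZCCHC4 KO1 (log2 difference -0.44, adjusted p = 0.352 from limma). The dishevelled genes, whose products inhibit the complex, were abundant and did not pass the test, with log2 differences of 0.16 for DVL1, 0.31 for DVL2 and -0.16 for DVL3 and adjusted p of 0.597, 0.29 and 0.575 from limma. DVL1 was the highest of them in every library, at 56.10 and 62.34 in WT, against 72.48 and 60.46 in ZCCHC4 KO1.

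TCF7L2 was the only TCF/LEF factor that was tested, and limma did not call it, nor was its unadjusted p under 0.05. It was at 9.68 and 8.67 in WT, against 5.75 and 8.18 in ZCCHC4 KO1 (log2 difference -0.37, standard error 0.223, adjusted p = 0.398). TCF7L1, mostly a repressor, was at 0.39 and 0.29 in WT, against 0.11 and 0.08 in ZCCHC4 KO1. TCF7 was at 0.14 and 0.20 in WT, against 0.36 and 0.21 in ZCCHC4 KO1, so that TCF7L1 ranked above TCF7 in both WT libraries and below it in both ZCCHC4 KO1 libraries.

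The replicates of the members differed along the GC content of their transcripts. Of the 10 tested members with a transcript GC content under 45%, WT replicate 2 was below replicate 1 for 9, and ZCCHC4 KO1 replicate 2 was above replicate 1 for all 10. Over 10559 tested genes, the Spearman correlation of GC content with replicate 2 minus replicate 1 was 0.706 for WT and -0.764 for ZCCHC4 KO1, a description across genes that share these libraries. For APC, replicate 2 minus replicate 1 was -0.73 for WT and 0.74 for ZCCHC4 KO1 on the log2 scale, as large as the difference between the groups (0.72). For 13 of the 31 tested members the WT replicates lay further apart than the groups. With the trend on GC content removed from each library, 25 of the 31 had a smaller adjusted p, as did 83.2 percent of all genes in that fit. Then 2 members were called higher (WNT7B and AXIN1), or 6.45 percent of the tested members against 6.53 percent of all genes. The 6 called lower (DKK1, RNF43, PORCN, FZD8, FZD3 and CTNNB1) were 19.4 percent of the tested members, against 12.3 percent of all genes.

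The position on the chromosome was set beside each member. WNT7B rose while 17 of its 20 nearest tested genes were lower (median -0.24). DKK1 and FZD8 stood well below neighbours with medians near 0, at -0.06 and -0.06. RNF43 stood well below neighbours with a median of -0.17, of which 15 of 20 were lower. PORCN and FZD3 lay among neighbours that were lower by a similar amount. No other tested member had neighbours with a median below -0.20.

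**Figure D3:**
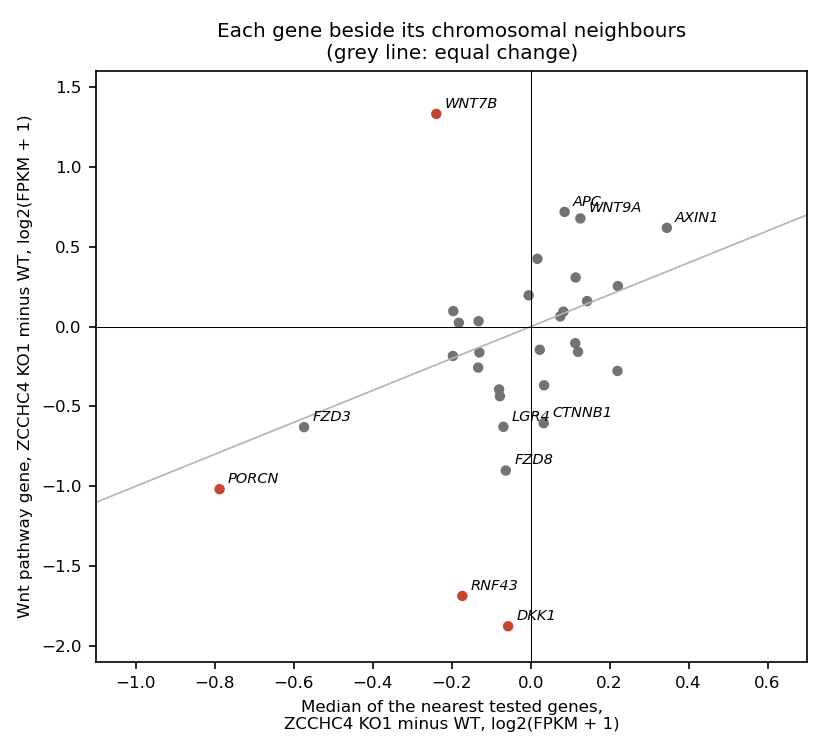
Log2 difference of each of the 31 tested members (y) against the median log2 difference of its nearest tested genes on the chromosome (x), with the grey line marking equal change and red points an adjusted p below 0.05. PORCN and FZD3 lie near the line at the lower left, whereas WNT7B lies far above it and DKK1 and RNF43 far below.

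The rest of the pathway was described with 4 further lists. They held 87 genes, with NOTUM and APCDD1, which are on both the modulator and the target list, counted once. Of the 87 genes, 75 were listed and 50 tested. In limma 2 were called higher and 5 lower, and the median log2 difference was -0.18. Over all 10726 tested genes, 1.5 percent were called higher and 4.48 percent lower, with a median of -0.03. An unadjusted p under 0.05 was found in limma for 21 of the 50 and for 2455 of all tested genes. Of 8 tested secreted and surface modulators, 0 were called higher and 2 lower. RSPO3, an R-spondin that engages LGR receptors and holds back RNF43 and ZNRF3, was at an FPKM of 16.21 and 11.93 in WT, against 0.17 and 0.22 in ZCCHC4 KO1. Both knockout libraries were near 0, and the log2 difference was -3.64 (standard error 0.221, adjusted p = 0.00278 from limma). RSPO3 passed the filter on low values only through its WT libraries, so that a difference was built into the filter, and with no filter its adjusted p was 0.0242. TRABD2A, a membrane protease that inactivates Wnt ligands, was at 26.92 and 23.40 in WT, against 4.25 and 3.46 in ZCCHC4 KO1 (log2 difference -2.43, standard error 0.191, adjusted p = 0.00517 from limma). Both calls held in all 13 alternative settings.

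Of 24 tested partners of the destruction complex and of nuclear beta-catenin, 1 was called higher and 0 lower, with 9 at an unadjusted p under 0.05. The gene called was TLE1, a corepressor that binds TCF factors, at 6.05 and 5.89 in WT, against 14.65 and 14.54 in ZCCHC4 KO1 (log2 difference 1.16, standard error 0.171, adjusted p = 0.0223 from limma). Its replicates were close and the groups far apart, but the call was lost without WT replicate 1 or without WT replicate 2 (adjusted p = 0.0921 and 0.115). Of 8 tested genes of planar cell polarity, limma called 0, with 1 at an unadjusted p under 0.05. That gene was VANGL1, named after its values were seen, at 6.41 and 6.01 in WT, against 3.06 and 4.11 in ZCCHC4 KO1.

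Of 11 tested beta-catenin/TCF targets outside the members, 1 was called higher and 3 lower, and 7 were not called. Their median log2 difference was -0.56, with 3 positive and 8 negative. GLUL, the glutamine synthetase that marks pericentral hepatocytes, was at an FPKM of 8.68 and 10.78 in WT, against 1.90 and 1.52 in ZCCHC4 KO1 (log2 difference -1.98, standard error 0.212, adjusted p = 0.0106 from limma). TBX3, a transcription factor and target in liver tumors, was at 10.09 and 9.45 in WT, against 2.40 and 2.93 in ZCCHC4 KO1 (log2 difference -1.56, adjusted p = 0.0151). CD44, an adhesion receptor for hyaluronan, was at 102.40 and 107.23 in WT, against 46.43 and 55.90 in ZCCHC4 KO1 (log2 difference -1.03, adjusted p = 0.0196), a call lost with no filter on low values (0.0516). The gene called higher was FOSL1, a subunit of AP-1 that was named after its values were seen, at 25.32 and 24.91 in WT, against 45.56 and 39.87 in ZCCHC4 KO1 (log2 difference 0.74, adjusted p = 0.0443). Its call was lost without WT replicate 1, without WT replicate 2 or without ZCCHC4 KO1 replicate 1 (adjusted p = 0.266, 0.272 and 0.077), with no filter on low values (0.0725) and with eBayes without a trend (0.0657). The 7 targets not called were named after their values were seen. NOTUM, at 6.21 and 6.25 in WT, against 6.68 and 5.80 in ZCCHC4 KO1, had a log2 difference of -0.001. CCND1 and MYC were at 0.06 and 0.50, while ID2, RHOU, SOX4 and BAMBI were at -1.01, -0.84, -0.56 and -0.20. Of 26 targets, 22 were listed and 11 of these tested. The untested ones stayed under an FPKM of 1 in every library and were named after their values were seen. NKD1, NKD2, SP5, EPHB3, MMP7, SOX9, CDX1 and APCDD1 were at 0.19 or less, and TCF4 and JAG1 at 0.76 or less. EPHB2 was at 0.81 and 0.95 in WT, against 0.13 and 0.11 in ZCCHC4 KO1 (adjusted p = 0.0324 from limma with no filter). Many of the targets on this list are known to answer to other pathways as well.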

How the data were processed

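RNA-seq of 4 libraries was analysed, 2 of WT and 2 of ZCCHC4 KO1 cells. According to the supplement of the study, reads were aligned to GRCh38 with Bowtie2 and expression was estimated with RSEM. The authors deposited FPKM values, 1 column per library, and every column matched a sample (0 unmatched). The supplement names the BGISEQ-500 platform and the labels an Illumina HiSeq. The versions, the read filters and the annotation are not given in the sources used here. Count models were not used, because FPKM is not a count.

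Of 16658 genes, 16384 had a RefSeq symbol (GRCh38.p14). Values of log2(FPKM + 1) were fitted with limma 3.58.1 in R 4.3.3 (lmFit, eBayes with a trend) over the 10726 genes with FPKM of at least 1 in at least 2 libraries, with Benjamini-Hochberg adjustment over all of them, and the fit was tested on simulated data. GC content came from the longest GENCODE transcript. The alternatives were another pseudocount, other filters, scalings and call thresholds, removal of the GC trend (natural spline, 4 degrees of freedom), eBayes without a trend, paired fits and leaving out each library. Neighbours were the 10 nearest tested genes on each side, fewer at chromosome ends.

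Members, lists, tests and alternatives were chosen with earlier results of these data known. Named were ZCCHC4, every member called, the most abundant members of each role (up to 2), members listed but not tested, and up to 3 called genes with the smallest p of each further list. Members with an unadjusted p under 0.05, and other members given to complete a role, were named after their values were seen.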

Additional observations from a re-analysis of the deposited data

How the results depend on the processing

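The number of calls moved with several settings, and the cause was not tested. Against 1 member higher and 3 lower, 2 were higher with quantile normalization, after removal of the GC trend and with median-ratio scaling, and 6 were lower with the GC trend removed. Calls over all genes rose under the same settings, from 161 higher and 480 lower to 689 and 1304 where the GC trend was removed, 314 and 671 with median-ratio scaling and 485 and 755 after quantile normalization. At the thresholds of the study 0 were higher and 0 lower. In limma 9 members had an unadjusted p under 0.05, as did 2455 of the 10726 genes tested. Leaving out each library in turn, with the lone library assumed to vary like the other group, gave 1 to 2 higher and 2 to 5 lower, the larger counts without ZCCHC4 KO1 replicate 2, where all genes gave 558 and 1037. Against 2 further pathway genes higher and 5 lower, 1 was higher with no filter, with eBayes without a trend and with a fold change of at least 2, and 4 were higher with quantile normalization and after removal of the GC trend. Lower were 8 with median-ratio scaling and 11 with the GC trend removed. At the thresholds of the study 0 and 0 were called, where 21 had an unadjusted p under 0.05. Leaving out each library gave 0 to 3 higher and 5 to 7 lower, with 0 higher without WT replicate 1 or WT replicate 2. Members lower without overlap numbered 13 (41.9 percent, against 28.5 percent of all tested genes). With a minimum FPKM of 5 they numbered 8 of 18 tested members, and the share of all genes was not computed at that setting.

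With the replicate block 1 member was higher and 2 lower, as were 107 and 355 of all genes, with PORCN no longer called (adjusted p = 0.164 from limma). Of the further genes 0 were higher and 5 lower. The libraries share only their replicate numbers, and the replicate differences of the groups had a Pearson correlation of -0.787 across genes. With the pairing crossed, an alternative chosen after seeing the data, 7 members were higher and 11 lower, as were 2309 and 2986 of all genes, and of the further genes 9 and 23.

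Directions reversed for members far from any call. The log2 difference was -0.008 for DVL1 and -0.009 for ZNRF3 with the GC trend removed. Without 1 library it ranged from -0.205 to 0.333 for WNT5A, from -0.477 to 0.108 for LRP6, from -0.215 to 0.283 for ROR1 and from -0.018 to 0.065 for ZNRF3. WNT7B kept its call under all 13 alternatives and RNF43 under all 12 in which it was tested. DKK1 lost it with no filter, and PORCN with no filter (adjusted p = 0.0916 from limma), the block and 3 of the 4 libraries left out. With no filter, AXIN2 was the only call among the 20 members left out of the main test (adjusted p = 0.0442 from limma). In that fit 0.492 percent of all genes were called higher and 1.57 percent lower. The depth behind values below an FPKM of 1 is unknown.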
